A study of Rattus norvegicus with 22 samples.

Results

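The 10 genes described here encode the glucose transporter Slc2a1 and enzymes of glycolysis and lactate formation. The enzymes are those of Hk1, Hk2, Pfkp, Aldoa, Pgk1, Pgam2, Eno1, Pkm and Ldha. The 10 genes were listed by name as glycolysis genes of cystic epithelium, which was not tested here, and make up 10 of the 17334 genes measured. The question was how their levels stood in cystic kidneys under each treatment, and how they moved from rat to rat with Slc34a1, the phosphate transporter of the proximal tubule. RNA came from the whole left kidney, so a level in these data belongs to the tissue, and the cell type in which a gene was expressed was not measured. For the same reason fewer cells of a type and less RNA per cell cannot be told apart.

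All 22 animals were male PKD/Mhm (Cy/+) rats, 8 months old. They were heterozygous for a missense mutation in the gene of SamCystin, a protein of the primary cilium, and each group carried it, so no kidney without cysts stands among them. The untreated group (label Control) held 6 rats, the i.p. ASC group (IP_ADSC) 6, the i.v. ASC group (IV_ADSC) 6 and the CM group 4. ASC are human adipose-derived stromal cells, given at 2000000 cells per injection, into the peritoneal cavity or into a vein, every month for 6 months. CM is the medium conditioned by such cells, as far as the label and the study's methods give it, and the sources differ on whether it was given i.v. or i.p. Total estimated counts ran from 12195663 to 14734753 per rat, and Slc34a1 itself was present in each kidney, at 227.5 to 1405 TPM, a unit that scales reads by transcript length and by the library.

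Glycolysis splits glucose into pyruvate in the cytosol, and lactate dehydrogenase then turns pyruvate into lactate. Proximal tubule cells are known to rely on fatty acid oxidation, to make glucose rather than burn it, and to carry the liver-type pyruvate kinase. Distal segments and dedifferentiated or proliferating tubule cells are known for isoforms of the list, such as the muscle-type pyruvate kinase. Isoform shares are therefore given beside levels below, and the shares were not tested.

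Several of these genes are textbook targets of the hypoxia-inducible factors, whose binding core is ACGTG. The 250 bases upstream of the annotated start are shown for 3 genes because they span the range found: Ldha had the most matches to the core, Slc2a1 had 1 and Hk2, the gene that moved most with Slc34a1, had none. The sequences are from RefSeq on the assembly GRCr8, read 5′ to 3′ toward the start site, and capitals mark ACGTG or its reverse complement CACGT. The windows lie at chr1:106507842-106508091 on the plus strand for Ldha, chr5:138002272-138002521 on the plus strand for Slc2a1 and chr4:116841276-116841525 on the minus strand for Hk2.
Ldha: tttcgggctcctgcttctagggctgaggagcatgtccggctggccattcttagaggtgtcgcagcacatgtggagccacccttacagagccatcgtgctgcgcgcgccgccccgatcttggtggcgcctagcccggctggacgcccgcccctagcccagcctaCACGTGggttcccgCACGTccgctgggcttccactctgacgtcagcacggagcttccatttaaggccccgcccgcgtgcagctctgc
Slc2a1: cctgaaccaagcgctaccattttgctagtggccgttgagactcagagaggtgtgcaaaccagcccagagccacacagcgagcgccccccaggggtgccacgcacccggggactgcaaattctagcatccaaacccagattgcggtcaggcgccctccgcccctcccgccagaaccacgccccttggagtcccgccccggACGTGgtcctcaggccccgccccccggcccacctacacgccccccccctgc
Hk2: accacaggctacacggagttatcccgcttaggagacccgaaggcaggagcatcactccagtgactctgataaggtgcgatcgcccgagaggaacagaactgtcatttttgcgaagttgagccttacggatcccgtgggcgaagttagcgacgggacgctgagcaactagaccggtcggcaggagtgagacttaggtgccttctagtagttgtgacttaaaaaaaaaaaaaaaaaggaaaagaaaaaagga
Ldha held 3 matches, and the palindrome CACGTG, known as an E-box, gave 2 of them because it reads as the core on both strands. Promoters were given for 9 of the 10 genes, Pgk1 being without an entry, and 4 of the 9 held the core on either strand in at least 1 window: Ldha, Slc2a1, Hk1 and Aldoa. Among all tested genes with a promoter 22% held it, and 1.98% of their windows held 3 or more matches. Genes differ in their number of windows. Counted by window, 4 of 13 windows of the members held the core, and 21.3% of the windows of tested genes. A match is a string of letters and not a bound site.

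The levels spanned more than 2 orders of magnitude on the TPM scale, which corrects for transcript length. Aldoa, fructose-bisphosphate aldolase A, was the most abundant of the 10, with a mean of 1804 TPM over 22 rats, above 99.6% of the genes measured. Eno1, the enolase, followed at 927.5 TPM and Pgk1, phosphoglycerate kinase, at 509.2. Ldha, the lactate dehydrogenase subunit A, stood at 469.4 TPM and Pkm, the muscle-type pyruvate kinase, at 377.9. Far below them came Hk1, the main hexokinase of the tissue, at 106.3 TPM. Pfkp, the platelet-type phosphofructokinase, had 47.22 TPM and the transporter Slc2a1 46.45. Pgam2, the muscle-type phosphoglycerate mutase, had 26.72 TPM and Hk2, the inducible hexokinase, 6.997.

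The order held within each of the 22 rats except between 2 pairs of neighbours, although the ranges of Ldha and Pkm and of Slc2a1 and Pgam2 also overlapped. Pgk1 was above Ldha in 17 of 22 rats, and Pfkp was above Slc2a1 in 13 of 22. Hk2 and Pgam2 rested on the fewest reads, 132 to 408 and 65 to 221 estimated counts per rat, against 19812 to 27010 for Aldoa. They also varied most between rats, by 3.38-fold and 3.47-fold from the lowest to the highest, whereas Pgk1 varied by 1.29-fold.

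**Figure D1:**
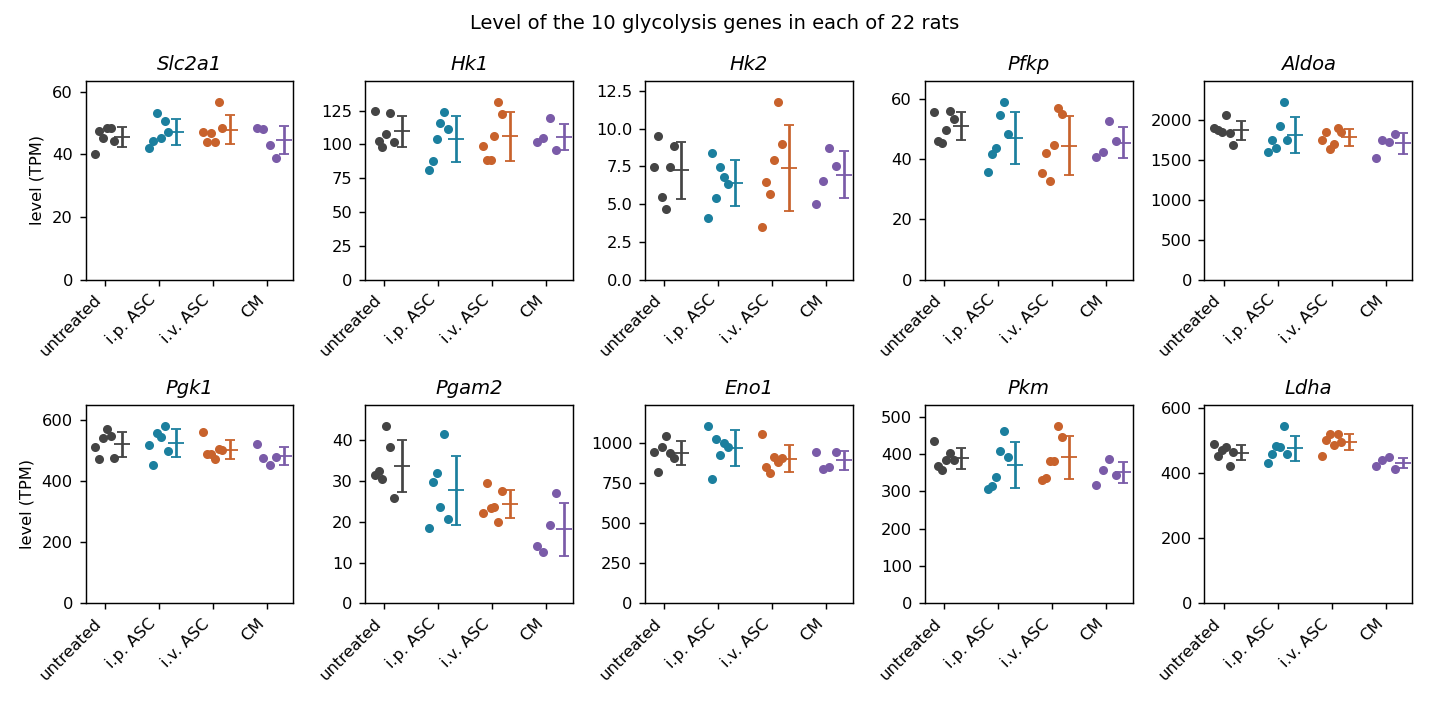
Level in TPM (y axis, from 0, a separate scale for each gene) of the 10 glycolysis genes by group (x axis), with 1 point per rat and the mean ± SD at its right. The groups overlap for each gene, and Pgam2 has its lowest points in the CM group, at 12.55 and 14.01 TPM.

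None of the 10 genes passed the test across all genes under any treatment. In i.p. ASC, i.v. ASC and CM rats against untreated rats 0 of 10 passed edgeR's quasi-likelihood test at a Benjamini-Hochberg adjusted p of 0.05, and 0 of 10 differed between i.v. and i.p. ASC. The background was the same, with 0% of 12867 genes called in each of these comparisons. At an unadjusted p under 0.05 the shares of all genes were 3.89% in i.p. ASC, 8.81% in i.v. ASC, 6.6% in CM and 2.18% between the routes, and 0, 1, 1 and 0 of the 10 genes were among them. DESeq2 called 0 of all genes under i.p. ASC, 22 under i.v. ASC, 5 under CM and 21 between the routes, and limma on log2 TPM called 0 in each, with none of the 10 among them. The 2 genes that passed at an unadjusted p were Ldha in i.v. ASC and Pgam2 in CM. The 3 treated groups share the untreated rats, so their differences are not independent.

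Pgam2 showed the largest difference of the list. Its level was 25.82 TPM in the lowest untreated rat, 31.97 at the median and 43.53 in the highest. In the 4 CM rats it was 12.55, 14.01, 19.2 and 27.01 TPM. Of these rats 3 were thus below each untreated rat, and the other lay inside the untreated range on this scale. On the log2 scale of counts per library size (CPM, scaled by TMM, which corrects for a few dominant genes) the CM rats ran from 2.42 to 3.42 and the untreated rats from 3.45 to 4.07, without overlap. Such a gap was found for 1.42% of all genes in this comparison and for 1 of the 10. It was found for 0.14% in i.p. ASC and 0.179% in i.v. ASC, with 0 of the 10 in either. A group of 4 rats is set apart by chance more often than a group of 6, so the share in CM cannot be compared with the other shares. The log2 fold change was -0.85 with an SE of 0.20, a level 0.556-fold that of untreated rats, and the adjusted p from edgeR was 0.563.

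With stromal cells the same gene lay between these groups. The i.p. ASC rats had 18.59, 26.81 and 41.52 TPM at the lowest, the median and the highest, and the i.v. ASC rats had 20.02, 23.58 and 29.42. Both groups overlapped the untreated rats, with log2 fold changes of -0.19 (SE 0.18) and -0.34 (SE 0.18). Pgam1, the form that most tissues use, held the bulk of the mutase RNA, at 304.7 to 402.6 TPM over all rats, and Pgam2 made up 7.11% to 10.7% of the pair in untreated rats and 3.55% to 7.59% in CM rats. Pgam2 is known from skeletal muscle. Of 5 muscle markers Ckm and Myl1 were below 1 TPM in every rat, Acta1 had 0.218 to 1.71 TPM, Tnnt3 4.59 to 22.4 and Myl11 13.1 to 35.1, and the summed level of the 5 muscle markers was 31.2 to 50.5 TPM in untreated and 27.2 to 33.8 in CM rats, whose part in the Pgam2 values was not tested.

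The genes whose log2 CPM followed Pgam2 most closely over the 22 rats were Retreg1, a receptor for selective autophagy of the endoplasmic reticulum (Pearson r = 0.89), and Slc26a4, the anion exchanger pendrin of intercalated cells (r = 0.884). Slc26a4 had a log2 fold change of -0.72 (SE 0.19) in CM, with an adjusted p of 0.665 by edgeR. It was picked for its likeness to Pgam2 over these same rats, so this value is not a separate observation. The summed level of the 4 intercalated cell markers of a fixed list was 544 to 700 TPM in untreated and 456 to 558 in CM rats. In CM 0 of the 4 passed the test by edgeR, where 0% of all genes passed. The part of these cells in the Pgam2 values was not tested.

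Ldha had the largest positive difference of the list, in i.v. ASC rats, and it missed the adjusted threshold. The untreated rats had 422.8, 466.5 and 488.2 TPM at the lowest, the median and the highest, and the i.v. ASC rats had 452, 499.2 and 520.2. The i.p. ASC rats lay at 429.5, 469.1 and 544.7 TPM, and the CM rats at 413.6, 421.3, 439.3 and 448.9. The i.v. ASC range thus began and ended higher than the untreated range, with an overlap, and on the TPM scale no CM rat reached the untreated median. On the log2 CPM scale a CM rat, at 9.032, lay above the highest untreated rat, at 9.018. The log2 fold change in CM was -0.033 (SE 0.083). For i.v. ASC the log2 fold change was 0.22 (SE 0.074), the unadjusted p 0.00862 and the adjusted p 0.523 by edgeR. Over 8 alternative settings this fold change ran from 0.101, on the log2 TPM scale, to 0.224. Ldhb, the subunit that favours pyruvate formation, was more abundant, so that Ldha made up 30.8% to 37.9% of the pair in untreated and 35.5% to 42.3% in i.v. ASC rats. In i.v. ASC the summed level of 4 urothelial markers reached 499 TPM in 1 rat, against at most 14.3 in untreated rats, and its part in the i.v. differences was not tested.

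The other 8 genes differed from untreated rats by at most 0.18 on the log2 scale in each comparison. Hk1 differed by 0.0090 to 0.052, with SEs of 0.083 to 0.093, and Aldoa by -0.071 to 0.034, with SEs of 0.067 to 0.075. Hk2 had the widest errors, with a log2 fold change of -0.086 (SE 0.22) for i.p. ASC and 0.11 (SE 0.22) for i.v. ASC, so that only large changes could have been detected for it. By direction alone 7 of 10 genes were higher in i.p. ASC, 8 in i.v. ASC and 3 in CM, while 53.8%, 52.5% and 50.9% of all genes were lower. Between the routes 6 of 10 were higher in i.v. than in i.p. ASC, where 54.1% of all genes were lower. The median log2 fold change of the 10 was 0.022, 0.064 and -0.033, against -0.014, -0.011 and -0.0030 over all genes tested.

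These directions depended on the scale. On the log2 TPM scale the median of all genes was shifted by -0.098 in i.p. ASC, -0.117 in i.v. ASC and -0.066 in CM, and 4, 3 and 0 of the 10 genes were higher there. Relative to that shift 7, 8 and 4 of them were higher.

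**Figure D2:**
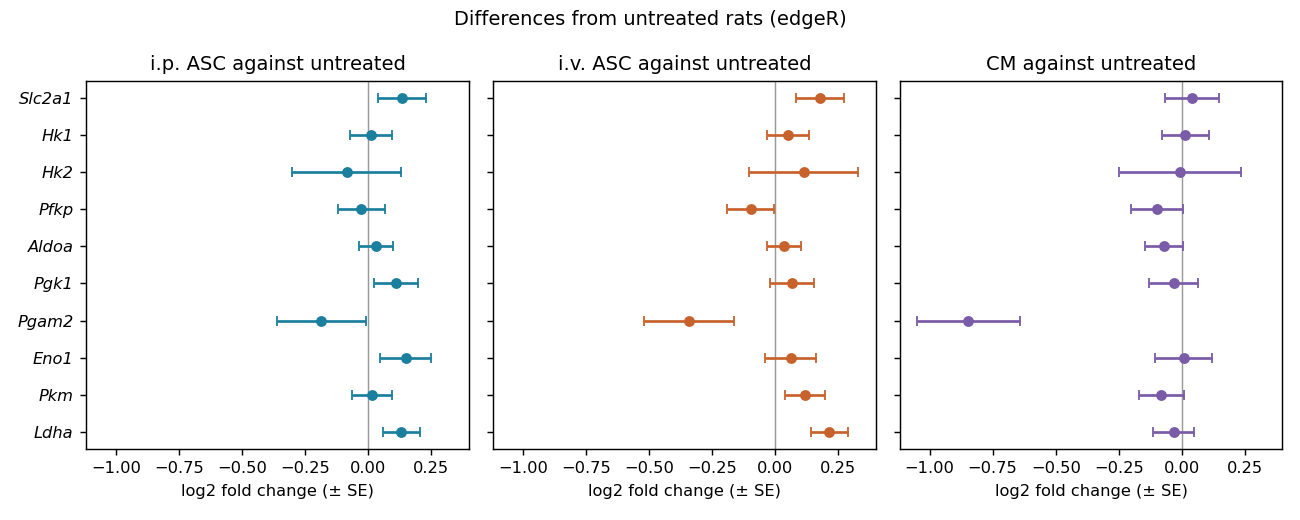
Log2 fold change against untreated rats (x axis, ± SE from edgeR) of the 10 genes (y axis) in i.p. ASC, i.v. ASC and CM rats. Only Pgam2 in CM, at -0.85, lies far from 0, and no gene passed the adjusted threshold.

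Slc34a1 differed more between the rats of a group than between groups. Untreated rats had 227.5, 691.3 and 1156 TPM at the lowest, the median and the highest, i.p. ASC rats 323, 851 and 1363, and i.v. ASC rats 388.6, 617.3 and 1405. The CM rats had 657.6, 839.7, 1146 and 1195 TPM. The range was 6.17-fold over all rats, and the treatments overlapped. Of 9 other proximal tubule markers tested, 6 rose with Slc34a1 and 0 fell, where 10.2% of all genes rose and 6.86% fell by the slope described next. The 3 not called were Slc7a13, with a slope of 1.68 (adjusted p = 0.0562 by edgeR), and the transporters Slc5a2 and Slc5a12, with slopes of 0.073 and -0.057.

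Against Slc34a1 3 of the 10 genes fell and 0 rose. The slope was fitted with edgeR over all 22 rats with the treatment group as a term, and it gives the log2 change per doubling of Slc34a1. The background was high, since 17.1% of 12866 genes were called, 10.2% higher and 6.86% lower. The genes called were Hk2, Pfkp and Pkm. The median slope of the 10 was -0.053, against -0.012 over all genes tested.

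Hk2, which phosphorylates glucose at the outer mitochondrial membrane, had the steepest slope, -0.40 (SE 0.094), with an adjusted p of 0.00774. Its level was 4.656, 7.455 and 9.506 TPM at the lowest, the median and the highest in untreated rats, 4.089, 6.557 and 8.377 in i.p. ASC rats, and 3.476, 7.213 and 11.75 in i.v. ASC rats. The CM rats had 5.008, 6.527, 7.544 and 8.694 TPM. The groups overlapped, and the rat with the most Slc34a1 of all 22, an i.v. ASC rat, was also the one with the least Hk2. The call held without each rat in turn, with adjusted p from 0.00121 to 0.0405, and was lost without the i.p. ASC or the i.v. ASC group as a whole.

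Pfkp, a phosphofructokinase subunit of the first committed step, fell by 0.15 per doubling on the log2 scale (SE 0.039, adjusted p = 0.0113 by edgeR). It had 45.51, 51.59 and 55.98 TPM in untreated rats at the lowest, the median and the highest, 35.77, 45.96 and 58.96 in i.p. ASC and 32.78, 43.38 and 57.05 in i.v. ASC rats. The CM rats had 40.85, 42.55, 46.06 and 52.6 TPM. The stromal cell groups thus spread both further down and further up than the untreated rats, with overlap. Without the i.v. ASC rat of highest Slc34a1 the adjusted p was 0.0503, and the number of genes called among the 10 went from 3 to 1 and among all genes from 2201 to 805.

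Pkm, which forms pyruvate in the last step, fell by 0.11 per doubling on the log2 scale (SE 0.037), with an adjusted p of 0.0456 by edgeR. Its level was 357.7, 384 and 434.7 TPM in untreated rats at the lowest, the median and the highest, 306.8, 365.9 and 462.4 in i.p. ASC and 329.7, 382.3 and 475.8 in i.v. ASC rats. The CM rats had 317, 344.4, 356.8 and 386.1 TPM, within the range of the other groups. The call for Pkm was at the threshold, and it was lost in 18 of 22 fits that each left out 1 rat and in 7 of 11 other settings.

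The remaining 7 genes did not pass. Eno1 had the only slope above 0.1, at 0.13 (SE 0.047), with an adjusted p of 0.0633 by edgeR and 0.0343 by DESeq2, and it passed without the untreated rat of lowest Slc34a1 (adjusted p = 0.0188). Pgk1 had a slope of 0.073 (SE 0.045) and Slc2a1 of 0.025 (SE 0.054). Hk1 had -0.092 (SE 0.042), Aldoa -0.056 (SE 0.034), Pgam2 -0.050 (SE 0.098) and Ldha -0.044 (SE 0.040). No slope was called different between the treatment groups by the interaction test, with 0 of the 10 genes and 0% of all genes called by edgeR, and 580 of all genes at an unadjusted p under 0.05. By limma on log2 TPM it called 0 of all genes too.

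**Figure D3:**
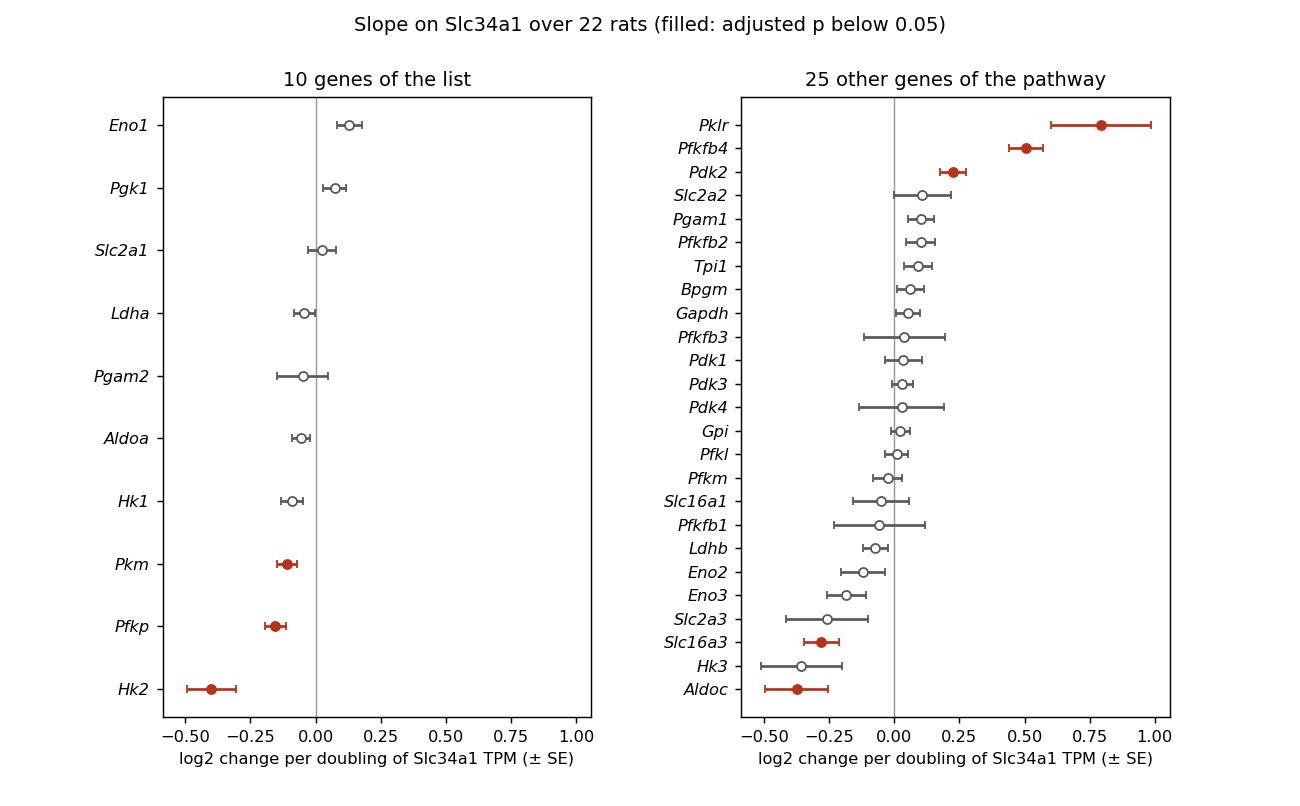
Slope on Slc34a1 (x axis, log2 change per doubling of Slc34a1 TPM, ± SE, edgeR over 22 rats) for the 10 genes and 25 other genes of the pathway (y axes), with filled red points for an adjusted p below 0.05. Hk2 at -0.40 is lowest on the left, and Pklr at 0.79 is highest on the right.

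Correlation on the TPM scale, without the group term, shared Hk2 and Pkm with the slopes and held Ldha in place of Pfkp. Pearson's r of log2(TPM + 1) with Slc34a1 over 22 rats was tested with 100000 permutations and adjusted over 12866 genes, of which 15.6% passed, 9.02% with a positive and 6.61% with a negative r. Hk2 had r = -0.64 and a Spearman rho of -0.65, with permutation adjusted p of 0.016 and 0.0156. Pkm had r = -0.57 and rho = -0.50, with adjusted permutation p of 0.0433 and 0.0955. Ldha had r = -0.57 and rho = -0.53, with adjusted permutation p of 0.0416 and 0.0655. These 3 passed by Pearson's r, and of them Hk2 alone passed by rank. Without the i.v. ASC rat of highest Slc34a1 0 of the 10 passed, with an adjusted permutation p of 0.0516 for Hk2.

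Pfkp and Eno1 lay close to the threshold. Pfkp had r = -0.52, rho = -0.51 and an adjusted permutation p of 0.0718 for r. Eno1 ran the other way, with r = 0.49 (adjusted permutation p = 0.0978) and rho = 0.58 (0.0394). Over all genes the median r was -0.131 on this scale. On the log2 CPM scale Ldha had an r of -0.16, which did not pass, while Hk2 (-0.68), Pfkp (-0.74), Pkm (-0.59) and Eno1 (0.57) passed.

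The 2 rats farthest from the median of Slc34a1 on the log2(TPM + 1) scale were an untreated rat at 227.5 TPM and an i.p. ASC rat at 323. Leaving out these 2 rats, both low in Slc34a1, changed which genes passed, and the i.v. ASC rat of highest Slc34a1 stayed in. Hk2 then had r = -0.78 (adjusted permutation p = 0.00127) and Eno1 r = 0.77 (0.00316). Pkm, at -0.42, and Ldha, at -0.48, no longer passed, and each also lost its call in 11 of 22 fits without 1 rat. Within groups of 6 rats no gene of the 10 passed, and 6 rats allow no permutation p below 0.139%, so that the adjusted threshold is hard to reach there. Hk2 had r = -0.49 in untreated, -0.78 in i.p. ASC and -0.88 in i.v. ASC rats, and Eno1 had 0.43, 0.61 and 0.61. The CM group, with 4 rats, was too small for a value.

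**Figure D4:**
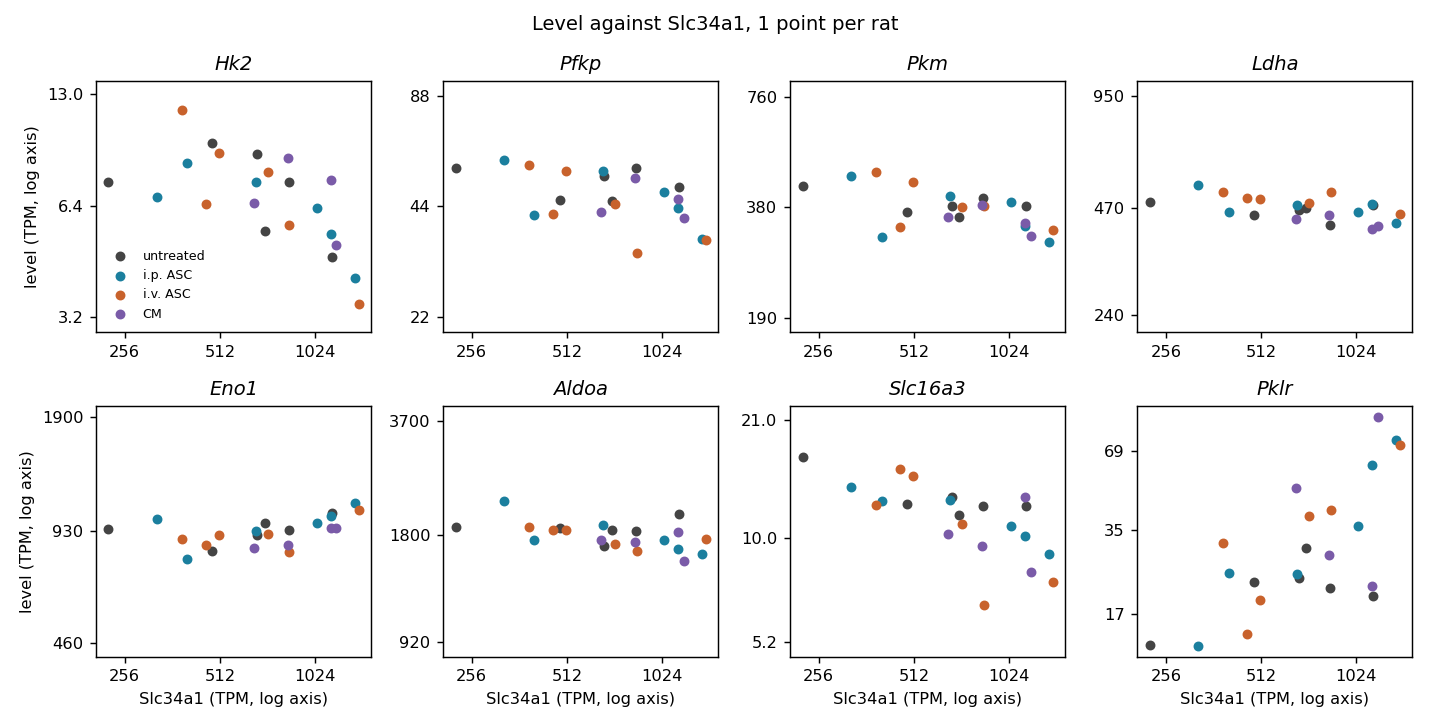
Level in TPM (y axes, log scale) against Slc34a1 in TPM (x axes, log scale) for 6 of the 10 genes and for Slc16a3 and Pklr, with 1 point per rat and a colour per group. Hk2 and Slc16a3 fall from left to right, and Pklr rises. Eno1 is highest, at 1105 and 1056 TPM, in the rats with 1363 and 1405 TPM of Slc34a1. A CM rat with 1195 TPM of Slc34a1 has 944 TPM of Eno1.

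Of 27 other genes of glycolysis and its control in a list, 26 were matched and 25 tested, and 3 rose and 2 fell with Slc34a1 by edgeR, shares close to the 10.2% and 6.86% of all genes. For the treatments 0 of the 25 passed the test by edgeR, where 0% of all genes passed. Pklr, the liver and red cell pyruvate kinase and the isoform partner of Pkm, rose by 0.79 per doubling (SE 0.19, adjusted p = 0.009). It had 13.06 TPM in the rat with the least Slc34a1 and 72.67 in the rat with the most, but 19.92 in an untreated and 21.6 in a CM rat that were also rich in Slc34a1, at 1156 and 1146 TPM. Against untreated rats the log2 fold change of Pklr was 0.956 (SE 0.46) in i.p. ASC, 0.875 (SE 0.46) in i.v. ASC and 1.265 (SE 0.502) in CM. The adjusted p by edgeR was 0.771, 0.523 and 0.711.

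The isoform shares were computed within each rat. Pkm made up 92.2% to 97.1% of the pyruvate kinase TPM in untreated, 80.3% to 97.3% in i.p. ASC, 81.9% to 95.9% in i.v. ASC and 77.4% to 94.1% in CM rats. The medians were 94.7%, 92.2%, 92.2% and 90.4% in that order. Hk2 made up 3.35% to 8.4% of the hexokinase TPM over all rats, of which Hk1 held 87.8% to 95.5% over all rats. Eno1 held 97.1% to 98.9% of the enolase TPM in each of the 22 kidneys.

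Regulators of the pathway were among the genes that passed. Pfkfb4, which sets the level of the phosphofructokinase activator fructose 2,6-bisphosphate, rose by 0.51 per doubling (SE 0.066, adjusted p = 0.000113 by edgeR), between 4.304 and 11.08 TPM over all rats. Pdk2, a kinase that holds back pyruvate dehydrogenase, rose by 0.23 (SE 0.049, adjusted p = 0.00464). Slc16a3, the lactate exporter MCT4, fell by 0.28 per doubling on the log2 scale (SE 0.068, adjusted p = 0.00999). Aldoc, the brain-type aldolase, fell by 0.37 (SE 0.12, adjusted p = 0.0386), at 1.997 to 8.519 TPM.

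Markers of other cell types were set against Slc34a1 in the same fit, where 6.86% of all genes fell and 10.2% rose. Of 8 markers of injured or cyst-lining epithelium 4 fell with it and 0 rose: Lcn2, Spp1, Krt18 and Cd24. The others were not called, with slopes of 0.134 for Sox9, -0.032 for Havcr1, -0.046 for Krt8 and -0.148 for Krt19. The summed level of this list was 10312 to 16629 TPM in untreated, 9631 to 14148 in i.p. ASC, 8583 to 14988 in i.v. ASC and 7761 to 12995 in CM rats, and its r with Slc34a1 was -0.707. Spp1 alone had 6275 to 14177 TPM over all rats, so the sum and its r mostly describe that gene. For other lists the r of the sum was -0.605 (skeletal muscle), -0.558 (lymphocyte), 0.496 (thick ascending limb) and 0.839 (proximal tubule without Slc34a1). Of the fibroblast markers 2 of 5 fell and of the lymphocyte markers 2 of 4, and 0 of 5 principal cell and 0 of 4 intercalated cell markers were called. The part of these cell types in the slopes of Hk2, Pfkp and Pkm was not tested.

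Among themselves the 10 genes did not form one group. Eno1 and Pgk1 were the closest pair, with a Pearson r of log2 CPM of 0.863 over 22 rats, followed by Hk1 and Pkm at 0.746, Pgk1 and Slc2a1 at 0.712 and Ldha and Slc2a1 at 0.705. Hk2 ran against Eno1, at -0.734, and against Pgk1, at -0.604. These values come from the same 22 libraries and are descriptive.

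Genes outside the list were closer to each of the 10 than any other member was. For Eno1 the nearest were Suclg1 (r = 0.949), a subunit of succinyl-CoA ligase, and Hadhb (0.933), of mitochondrial fatty acid oxidation, and Pgk1 ranked below them as number 50 of 12866 genes. For Pgk1 the nearest were Acat1 (0.939), of mitochondrial ketone metabolism, and Slc25a3 (0.928), the mitochondrial phosphate carrier. For Hk2 they were Spib (0.893), a transcription factor known from B cells, and Cacnb3 (0.879), a calcium channel subunit, while Pfkp, its closest member at 0.528, ranked as number 1392. For Pkm they were Anxa4 (0.86) and Myzap (0.857), and Hk1 ranked as number 23.

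The other members had neighbours of several kinds. Hk1 was nearest to Tshr (0.842) and Zfp629 (0.826), and Pfkp to Clip2 (0.839) and Sfxn3 (0.83). Aldoa was nearest to Ppp2cb (0.824) and Atp6v1f (0.818), and Ldha to Rbx1 (0.878) and Atp6v0e1 (0.875). Atp6v1f and Atp6v0e1 encode subunits of the vacuolar proton pump. Slc2a1 was nearest to Cyb561 (0.877) and Prdx5 (0.87), the latter a peroxiredoxin.

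**Figure D5:**
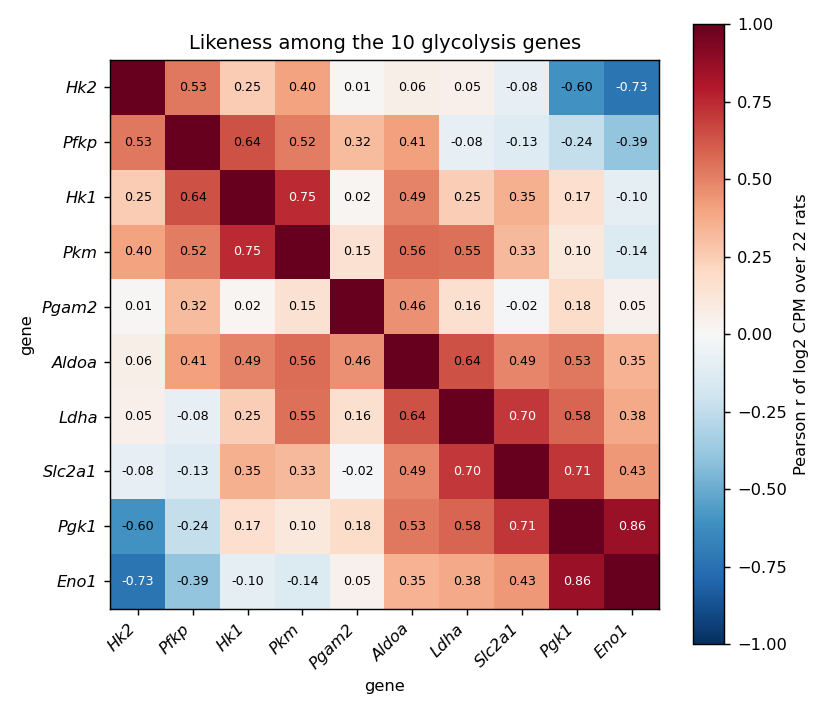
Pearson r of log2 CPM over 22 rats for each pair of the 10 genes (both axes list the genes, colour from -1 in blue to 1 in red). Eno1 and Pgk1 form the closest pair at 0.863, and Hk2 is negative against both.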

How the data were processed

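BGISEQ-500 reads of 22 left kidneys were the source. The files deposited by the authors give estimated counts per rat Entrez gene, without normalization, and TPM values, scaled by the authors by length and total (sums of 959754 to 968550 per rat). The submitters' processing notes list Trim Galore 0.6.4, kallisto 0.4.6 and rn6. Estimated counts were rounded (14.1% were not whole). Symbols came from RefSeq GRCr8 (17179 of 17334 genes, 155 unmatched). How reads shared with paralogs and processed pseudogenes were split is not given in the sources used here, so the levels of Aldoa, Eno1, Pgk1, Pkm and Ldha are uncertain in that respect.

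Counts were tested with edgeR 4.0.16 (R 4.3.3, TMM, filterByExpr, quasi-likelihood, all 4 groups in one fit, 12867 genes) and Benjamini-Hochberg adjustment at 0.05. Slopes used log2(Slc34a1 TPM + 1), centred, with group as a term. Log2 CPM used a prior count of 2. Alternatives used DESeq2 1.42.0 and limma 3.58.1, and the tests were tried on simulated data. The labels do not say whether rats shared a litter or a batch.

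The members and lists were chosen with earlier results of these data known. Named were the 10 members, their isoform partners, list genes past the threshold, the 2 genes most like each member, and marker genes. A gene of the pathway list is not reported here.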

Additional observations from a re-analysis of the deposited data

Results flagged for a closer look

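In the i.v. ASC group Hk1 was set apart in replicate 5. Its log2 CPM was 8.33, while the other 5 rats of the group lay between 7.94 and 8.08, and the gap was 0.656 of the group's range, beyond the limit of Dixon's test at 95%. In TPM the same rat had 131, and the others had 88 to 123. It was the only flag among 44 tests of a gene in a group, and chance alone flags about 1 in 20.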

How the results depend on the processing

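No paired analysis was possible because each rat belongs to 1 group and the labels give no replicate number that groups share. None of the 10 genes was called for any treatment under the 8 alternatives or without any rat.

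The number of genes called on the Slc34a1 slope was 3, and it was 1 by limma on log2(TPM + 1), 0 without the i.p. ASC group and 0 without the i.v. ASC group, where 187 and 320 of all genes were called, and 1 to 3 without 1 rat. The correlation count was 3, and it was 5 without a log, 5 with other proximal tubule markers in place of Slc34a1, 0 within each of the groups of 6 and 0 to 4 without 1 rat, where 0 came without the i.v. ASC rat of highest Slc34a1. The causes were not tested.

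On the log2 TPM scale (limma, pseudocount 1 and then 0.1) signs turned for i.p. ASC in Hk1 (-0.085, -0.085), Aldoa (-0.050, -0.050) and Pkm (-0.081, -0.082). For i.v. ASC they turned in Hk1 (-0.060, -0.061), Hk2 (-0.017, -0.026), Aldoa (-0.069, -0.069), Eno1 (-0.053, -0.053) and Pgk1 (-0.046, -0.046), and for CM in Hk1 (-0.054, -0.054), Eno1 (-0.066, -0.066) and Slc2a1 (-0.037, -0.038). With Slc34a1 as covariate Pfkp turned to 0.0023 for i.p. ASC, and for CM Hk2 to 0.24 and Eno1 to -0.077. Hk2 in CM was 0.0020 by DESeq2, 0.0022 with RLE size factors and 0.0028 with 2 groups alone. The slope of Slc2a1 was -0.0039 without the untreated group and that of Pgam2 0.056 without the i.p. ASC group. The r of Slc2a1 was 0.19 on log2 CPM, 0.021 on deviations from group means and 0.84 within untreated rats, where Aldoa had 0.17 and Pgam2 0.47.

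Without 1 rat, log2 fold changes that turned ran as follows. For i.p. ASC the range was -0.034 to 0.059 in Hk1, -0.21 to 0.054 in Hk2, -0.085 to 0.026 in Pfkp, -0.0029 to 0.058 in Aldoa and -0.037 to 0.049 in Pkm. For i.v. ASC it was -0.00060 to 0.086 in Hk1 and -0.050 to 0.25 in Hk2. For CM it was -0.030 to 0.065 in Hk1, -0.10 to 0.13 in Hk2, -0.093 to 0.066 in Eno1, -0.15 to 0.030 in Pgk1, -0.094 to 0.016 in Ldha and -0.060 to 0.12 in Slc2a1. Slopes ran from -0.013 to 0.053 in Slc2a1 and from -0.096 to 0.026 in Pgam2, and r from -0.28 to 0.13 in Slc2a1. Pgam2 in CM kept its sign, from -0.93 to -0.81 over the alternatives and -1.02 to -0.69 without 1 rat, with adjusted p from 0.0902 to 0.96 and 0.345 to 1.

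Hk2 and Pgam2 had the widest errors of the 10 genes, and changes of the size of those errors were not detectable. The cause of the width was not tested.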

Other observations

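Hypoxia response genes were looked at because several glycolysis genes are known to be induced with them. Of 15 listed genes 14 were matched and tested. With Slc34a1 2 rose and 0 fell by edgeR, where 10.2% of all genes rose and 6.86% fell. Under each treatment 0 of the 14 passed the test, where 0% of all genes passed. Ankrd37 rose by 0.40 per doubling (SE 0.097, adjusted p = 0.00934) and Bnip3, a receptor of mitophagy, by 0.23 (SE 0.069, adjusted p = 0.028). Vegfa had 0.19 (SE 0.11, adjusted p = 0.224), Hif1a 0.027 (SE 0.035, adjusted p = 0.631) and Car9 -0.39 (SE 0.18, adjusted p = 0.144), which missed the threshold. For the treatments 4 of 14 genes were higher and 10 lower under each of the 3 treatments, which share the untreated rats, with median log2 fold changes of -0.063 (i.p. ASC), -0.18 (i.v. ASC) and -0.13 (CM). Of all genes tested 53.8%, 52.5% and 50.9% were lower, with medians of -0.014, -0.011 and -0.0030.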
